A study of Mus musculus with 10 samples.

Results

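The genes described here build the electrical and mechanical contacts between heart muscle cells, and they were chosen by name: the rows of the counts table for Gja1, Gja5, Gjc1, Dsp, Pkp2, Jup, Dsg2, Dsc2, Cdh2 and Ctnna3. All 10 were among the 21513 gene symbols of the table. The study sequenced RNA from 10 libraries of neonatal mouse heart cells (wild type, age P1-P3), 2 in each of 5 groups, and asked how induced cardiomyocytes made with a compound resemble primary cardiomyocytes. Induced cardiomyocytes (iCM) are cardiac fibroblasts turned towards a muscle state by added transcription factors, labelled MGT here, a name used in this field for Mef2c, Gata4 and Tbx5. Of the 3 iCM groups 1 received MGT with ZLN005, a compound known to raise expression of the metabolic coactivator PGC1α, 1 received MGT with GW501516, which activates the nuclear receptor PPARδ, and 1 received MGT with the solvent DMSO, all at day 14. The other 2 groups were primary cardiomyocytes (CM) at day 3 and cardiac fibroblasts (CF) at day 14. The CF titles name neither MGT nor DMSO, so iCM against CF compares factors and solvent together, and CM also differ from every other group in day. The titles and library names give CM as cardiomyocytes while their cell type and treatment entries repeat those of the fibroblasts. The labels state no compound dose or length of treatment. They do not tell either if replicate libraries stem from different animals or cultures, so p-values measure the spread between these libraries, which may be technical.

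Heart muscle cells are joined end to end at the intercalated disc. Gap junctions there pass current from cell to cell and are built of connexins: connexin 43 (Gja1) is the main one of working myocardium, connexin 40 (Gja5) marks atrial and conduction cells, and connexin 45 (Gjc1) is found early in development and in nodal cells. Desmosomes tie the desmin filaments of neighbouring cells together through a chain of proteins, in which the desmosomal cadherins desmoglein 2 (Dsg2) and desmocollin 2 (Dsc2) cross the membrane, plakoglobin (Jup) and plakophilin 2 (Pkp2) form the plaque beneath them, and desmoplakin (Dsp) reaches the filaments. Adherens junctions anchor the sarcomeric actin through N-cadherin (Cdh2) and the catenins, of which αT-catenin (Ctnna3) is enriched in heart muscle. Inherited loss of plaque and cadherin components of the desmosome is a known cause of arrhythmogenic cardiomyopathy in humans.

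In GENCODE release 21 on GRCm38, the assembly that mm10 names, every member had 1 gene model. Gja1 lies on chromosome 10 from 56377330 to 56402513 on the plus strand, Gja5 on chromosome 3 from 96904693 to 97077416 on the plus strand, and Gjc1 on chromosome 11 from 102799579 to 102819700 on the minus strand. Dsp lies on chromosome 13 from 38151294 to 38198577 and Pkp2 on chromosome 16 from 16213318 to 16272712, both on the plus strand, and Jup on chromosome 11 from 100368958 to 100397763 on the minus strand. Ctnna3 spans 1574 kb of chromosome 10 from 63430098 to 65003667 on the plus strand. No source used here gives the strand setting of the counting, so reads of antisense genes cannot be told apart from those of a member. Gpr89, on the other strand, covers 165 exon bases of Gja5 (2.87% of them), Gm16090 covers 330 of Dsg2 (3.99%), and Gm10129, which has no row in the table, covers 499 of Dsp (5.17%). A transcript of Zfp697 shares 856 bases with Gja5 at 99.4% identity. The low Gja5 and Dsg2 counts outside CM are therefore less certain than the others.

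Promoters from RefSeq (GRCm38.p6, 250 bases before and 50 after a start site) were given for 5 members, namely Gja1, Gja5, Dsp, Jup and Ctnna3, the last with 3 of them. The 3 shown belong to the main connexin, to the connexin that was far below CM in every other group and to the desmosome gene that reached its CM level. Capitals mark matches to the letters searched on both strands: AGATAA for GATA factors, GGTGTGA for T-box factors, the MEF2 consensus, and CANNTG for the E-box, a palindrome counted once per site. The Gja1 promoter (chr10:56377050-56377349, plus strand) holds AGATAA on the minus strand, at positions -135 to -130 from the start site, and an E-box at -23 to -18. The Gja5 promoter (chr3:97032152-97032451, plus strand) and the Dsp promoter (chr13:38151044-38151343, plus strand) each hold 1 E-box.
Gja1: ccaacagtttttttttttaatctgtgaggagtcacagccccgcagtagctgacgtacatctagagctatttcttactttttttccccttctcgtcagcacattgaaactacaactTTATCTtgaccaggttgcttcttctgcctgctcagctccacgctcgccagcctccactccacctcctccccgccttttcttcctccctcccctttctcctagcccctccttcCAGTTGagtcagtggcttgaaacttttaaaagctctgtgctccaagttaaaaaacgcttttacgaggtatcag
Gja5: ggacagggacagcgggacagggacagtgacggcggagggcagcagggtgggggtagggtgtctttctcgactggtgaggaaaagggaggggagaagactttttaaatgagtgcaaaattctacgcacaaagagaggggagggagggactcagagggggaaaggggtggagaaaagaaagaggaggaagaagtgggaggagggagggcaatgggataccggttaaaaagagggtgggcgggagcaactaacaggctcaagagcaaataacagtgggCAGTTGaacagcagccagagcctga
Dsp: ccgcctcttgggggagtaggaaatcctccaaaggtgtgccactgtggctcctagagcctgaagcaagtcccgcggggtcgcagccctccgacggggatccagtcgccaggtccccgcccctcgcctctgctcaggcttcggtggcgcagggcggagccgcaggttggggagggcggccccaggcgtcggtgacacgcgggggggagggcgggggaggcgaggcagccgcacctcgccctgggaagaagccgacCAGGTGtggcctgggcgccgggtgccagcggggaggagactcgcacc
Neither the T-box letters nor the MEF2 consensus occurs in these windows, nor in those of Jup and Ctnna3. Among all 32851 promoters of the same length in that table, 11.2% hold AGATAA, 3.98% GGTGTGA, 3.19% the MEF2 consensus and 72.3% an E-box. The Dsp window has 27 CpG dinucleotides and a GC content of 73%, against 8 and 47.7% in that of Gja1 and 7 and 55.7% in that of Gja5. A match describes the letters and no binding site, and its absence says nothing about a factor.

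Libraries held 39065969 to 61886463 counts, and the Pearson correlation across genes between replicates (log2 CPM) was 0.984 to 0.993. Levels are given as CPM, the count scaled to a common library size after TMM, and as CPM per kb of merged exon where genes are compared with each other. The summed CPM of 10 cardiomyocyte markers was 9581 and 9895 with ZLN005, 9939 and 9868 with GW501516, 5705 and 5916 with DMSO, against 26140 and 26680 in CM and 344.2 and 528.0 in CF, so the CM libraries carry muscle markers as their titles say. Fibroblast markers (7 of 8 listed were in the table) summed to 9467 to 9718, 12410 to 12580, 15600 to 15990, 13040 to 13060 and 34740 to 38700 CPM in the same 5 groups. Macrophage markers (9 of 10) summed to 101.7 to 105.2 CPM with the compounds, 687.1 to 712.7 with DMSO, 26.75 and 29.36 in CM, and 2620 in CF replicate 1 and 452.7 in CF replicate 2. These are bulk libraries, in which fewer cells of a type and less RNA per cell cannot be told apart.

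Of the 3 connexins, Gja1 was raised in every iCM group without reaching its CM level, Gjc1 was not called different between iCM and CF with all libraries in the fit, and Gja5 was close to absent outside CM. Gja1 had 341.9 and 343.1 CPM with ZLN005, 285.7 and 284.5 with GW501516, 225.4 and 233.7 with DMSO, 1150 and 1146 in CM, and 58.28 and 66.0 in CF. No library of one group fell within the range of another, and the order was CM, ZLN005, GW501516, DMSO, CF. In iCM with DMSO Gja1 was 3.69 times its CF level (log2 change 1.89 ± 0.06, SE; adjusted p = 2.1e-09, edgeR's quasi-likelihood test with Benjamini-Hochberg adjustment over 15740 genes, used for every adjusted p below). The same iCM had 0.200 times the Gja1 of CM (log2 change -2.32 ± 0.06, adjusted p = 2.4e-10).

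Gjc1 had 45.0 and 42.5 CPM with ZLN005, 35.8 and 38.7 with GW501516, 38.5 and 41.4 with DMSO, 81.7 and 81.3 in CM and 35.5 and 42.6 in CF. CM stood apart, and the CF libraries overlapped with those of all 3 iCM groups. CM had 2.09 times the Gjc1 of CF (log2 change 1.06 ± 0.08, adjusted p = 8.5e-07). For iCM with DMSO over CF the log2 change was 0.04, with a 95% interval of -0.15 to 0.22 (adjusted p = 0.77), and the changes for ZLN005 and GW501516 over CF were 0.16 and -0.07 (adjusted p = 0.13 and 0.55). These depended on the CF library kept: without CF replicate 2 Gjc1 was called higher with ZLN005 (0.30, adjusted p = 0.00097), and without CF replicate 1 it was called lower with GW501516 (-0.17, adjusted p = 0.043).

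Gja5 passed the filter on low counts only through CM. It had 6 and 18 counts with ZLN005 (0.149 and 0.308 CPM), 6 and 6 with GW501516 (0.145 and 0.151 CPM), 11 and 6 with DMSO (0.205 and 0.121 CPM), 233 and 168 in CM (5.15 and 4.30 CPM) and 5 and 4 in CF (0.0787 and 0.0656 CPM). The iCM groups overlapped with each other, and no library outside CM came near the CM level. CM had 63.2 times the Gja5 of CF (log2 change 5.98 ± 0.43, adjusted p = 4.3e-07). ZLN005 over CF was called higher (log2 change 1.68 ± 0.50, adjusted p = 0.017), a difference of a few counts that was lost without ZLN005 replicate 2 (1.03, adjusted p = 0.29). It was lost too without CF replicate 1, where the change was 1.85 (adjusted p = 0.052), and without CF replicate 2, where it was 1.57 (adjusted p = 0.081).

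Per kb of exon, the make-up of the 3 connexins differed between groups. Gja1 made up 79.2% ± 0.674 of the 3 with ZLN005, 78.8% ± 0.955 with GW501516, 73.6% ± 0.464 with DMSO, 86.7% ± 0.0751 in CM and 43.7% ± 1.00 in CF (SD, n = 2 each). In CF, Gjc1 was the larger part per kb with 56.2% ± 1.02. In CPM the order in CF was the reverse, with Gja1 at 58.28 and 66.0 and Gjc1 at 35.45 and 42.55. The per kb order rests on merged exon lengths of 10257 bases for Gja1 and 5003 for Gjc1. The annotation used for counting is not stated, so these shares and ratios depend on the lengths chosen. The summed level of the 3 connexins was 42.2 CPM per kb with ZLN005, 35.3 with GW501516, 30.4 with DMSO, 129 in CM and 13.9 in CF. The ratio of Gja1 to Gjc1 per kb was 3.82 ± 0.166, 3.74 ± 0.214, 2.80 ± 0.0710, 6.87 ± 0.00363 and 0.779 ± 0.0320 in the same 5 groups (SD, n = 2 each).

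**Figure D1:**
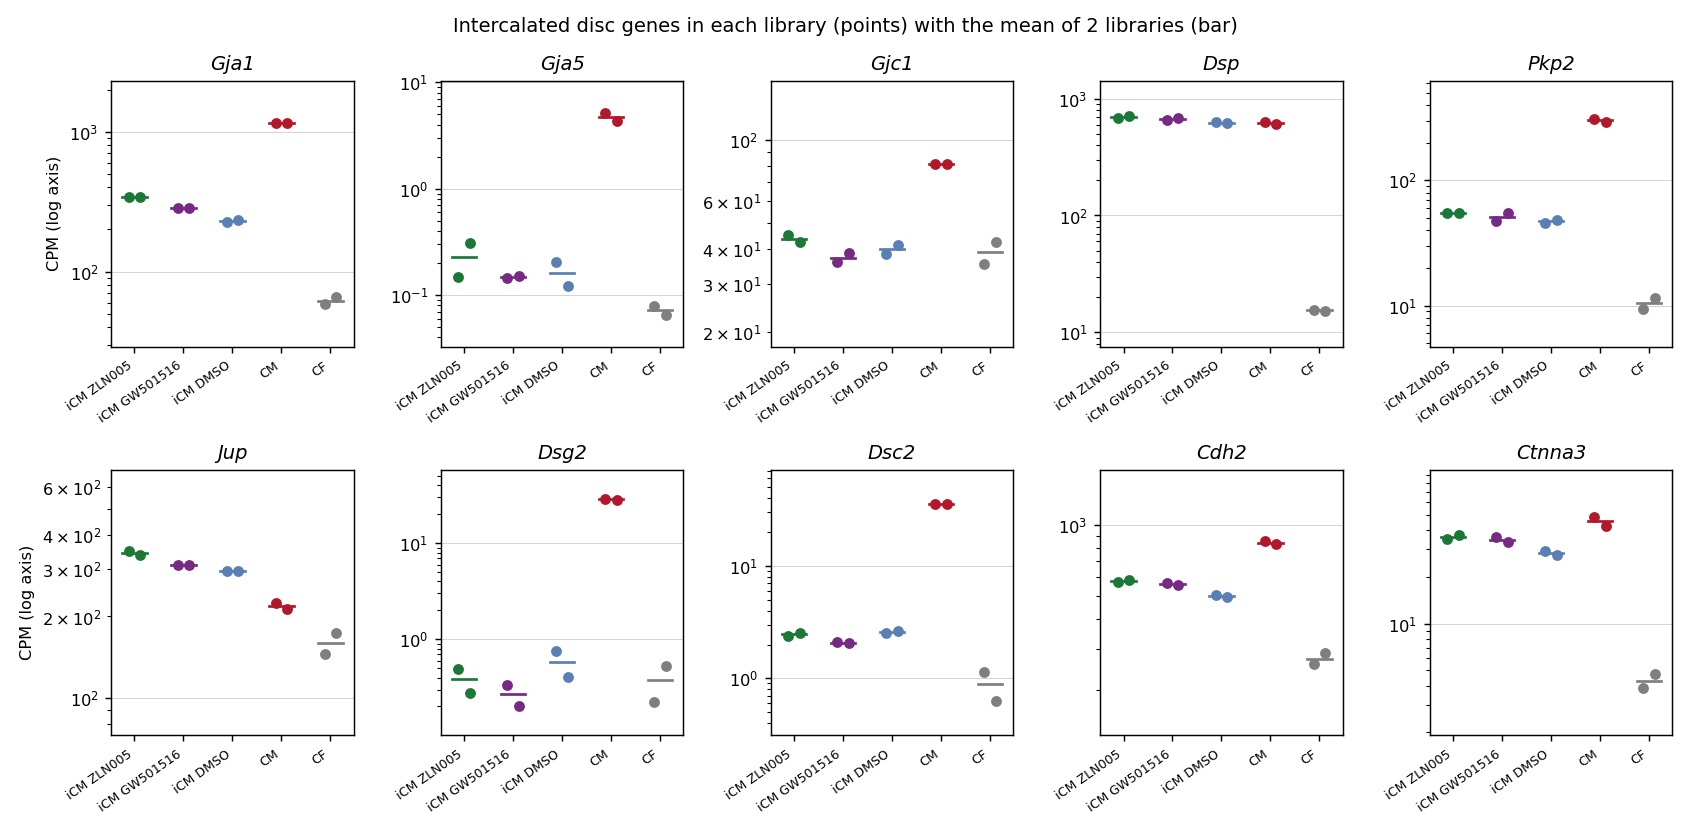
CPM (log axis, scaled separately for each gene) of the 10 genes in each library (points, 2 per group), with the group mean as a bar, for iCM with ZLN005, GW501516 and DMSO, CM and CF. Dsp in the 3 iCM groups (618.6 to 706.9 CPM) lies within or above the range of the CM libraries (606.8 and 631.4), whereas Dsg2 in iCM (0.201 to 0.763) lies with CF (0.220 and 0.525) and far below CM (29.1 and 28.4).

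Among 17 other connexin and pannexin genes in the table, 12 were tested. In iCM with DMSO over CF 4 were called higher and 1 lower, where 39.3% of all genes were called, 19.9% higher and 19.5% lower. In CM over CF 7 were higher and 3 lower, where 70.7% of all genes were called, 34.5% higher and 36.2% lower. Of the 7, Gjb2 and Gjd3 passed the filter on low counts only through CM, which favours their calls. They averaged 0.308 and 0.315 CPM in CM and at most 0.147 and 0.02015 in any other group. Of the 4, Gjd2 and Gjd4 averaged 0.115 and 0.377 CPM in iCM with DMSO and 0 in CF. Both passed only through iCM, which favours their calls too. Gja3 (connexin 46, best known from the lens) had 48.04 and 48.01 CPM in iCM with ZLN005, against 2.393 and 3.183 in CF (log2 change 4.11 ± 0.10, adjusted p = 2.3e-10). Per kb of exon, Gja3 stood at 16.2 CPM with ZLN005, 17.1 with GW501516, 15.1 with DMSO, 11.6 in CM and 0.941 in CF, which is 1.86, 2.30, 1.89, 0.713 and 0.120 times the level of Gjc1. Gja3 was higher than in CM with ZLN005 (log2 change 0.48 ± 0.08, adjusted p = 0.00042), opposite to the direction of all 3 members of its family described above. Gja4 (connexin 37, of arterial endothelium) was lower than in CF, with 5.193 and 5.763 CPM in iCM with DMSO and 28.56 and 35.79 in CF (log2 change -2.55 ± 0.15, adjusted p = 2.1e-07). The 10 endothelial markers summed to 36.39 to 37.3 CPM in iCM with DMSO and 56.09 to 105.5 in CF, with Cldn5 at 0 in every iCM library, and their part in the Gja4 difference was not tested.

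The desmosome genes differed along the chain: Dsp, at its filament end, reached its CM level in iCM, Jup lay above CM, Pkp2 covered part of the distance, and of the cadherins Dsc2 covered 23.5% to 29.5% of the log2 distance from CF to CM, while Dsg2 was not called different from CF. Dsp had 681.6 and 706.9 CPM with ZLN005, 652.9 and 677.8 with GW501516, 628.0 and 618.6 with DMSO, 631.4 and 606.8 in CM and 15.66 and 15.13 in CF. Both DMSO libraries fell within the CM range, and CF was far below every other library. In iCM with DMSO Dsp was 40.5 times its CF level (log2 change 5.34 ± 0.06, adjusted p = 1.1e-12). Against CM the log2 change was 0.01, with a 95% interval of -0.09 to 0.11 (adjusted p = 0.86). With ZLN005 Dsp was called slightly higher than in CM (log2 change 0.17 ± 0.05, adjusted p = 0.009), a call lost without CM replicate 2 (0.15, adjusted p = 0.068), and with GW501516 the change of 0.10 over CM was not called (adjusted p = 0.07) but passed under 3 of 11 alternatives.

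Jup had 347.9 and 337.0 CPM with ZLN005, 308.8 and 309.3 with GW501516, 294.8 and 295.2 with DMSO, 223.6 and 212.6 in CM and 145.8 and 173.3 in CF. All 6 iCM libraries were above both CM libraries, and CM above CF. Over CM the log2 changes were 0.65 ± 0.07 with ZLN005 (adjusted p = 1.2e-05), 0.50 ± 0.07 with GW501516 (adjusted p = 8.6e-05) and 0.44 ± 0.07 with DMSO (adjusted p = 0.00024). Jup was the sole member called higher than in CM in all 3 iCM groups. CF expressed it too, and CM over CF differed by a log2 change of 0.45 ± 0.07 (adjusted p = 0.00018), the smallest CM to CF difference of the 10 genes.

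Pkp2 had 55.2 and 54.8 CPM with ZLN005, 47.5 and 54.5 with GW501516, 45.9 and 48.7 with DMSO, 311.3 and 291.4 in CM and 9.41 and 11.45 in CF. The iCM libraries lay between CF and CM without overlap with either, and GW501516 overlapped with DMSO. Pkp2 was 4.54 times its CF level in iCM with DMSO (log2 change 2.18 ± 0.09, adjusted p = 2.1e-08) and 0.157 times its CM level (-2.67 ± 0.09, adjusted p = 1.3e-09). As a share of the CF to CM distance on the log2 scale, Pkp2 covered 49.4% with ZLN005, 47.2% with GW501516 and 45.0% with DMSO, against 103%, 102% and 100% for Dsp in the same groups.

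Dsg2, the desmoglein of heart muscle, lies on chromosome 18, as do Dsc2 and Cdh2. It had 20 and 16 counts with ZLN005 (0.496 and 0.274 CPM), 14 and 8 with GW501516 (0.338 and 0.201 CPM), 41 and 20 with DMSO (0.763 and 0.403 CPM), 1315 and 1110 in CM (29.1 and 28.4 CPM) and 14 and 32 in CF (0.220 and 0.525 CPM). Each iCM group overlapped with CF, and CM was apart from all. CM had 77.0 times the Dsg2 of CF (log2 change 6.27 ± 0.38, adjusted p = 1.2e-07). The size of that difference rested on the 14 and 32 CF counts, with a log2 change of 5.77 without CF replicate 1 and 7.0 without CF replicate 2. iCM with DMSO had 0.0205 times the Dsg2 of CM (log2 change -5.61 ± 0.36, adjusted p = 2.4e-07), and against CF its change of 0.66 had a 95% interval of -0.29 to 1.61 (adjusted p = 0.26). Without CF replicate 2 that change was 1.41 and was called (adjusted p = 0.016), and over the other alternatives it was 0.12 or more with no call.

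Dsc2 had 2.38 and 2.55 CPM with ZLN005, 2.10 and 2.06 with GW501516, 2.55 and 2.66 with DMSO, 35.9 and 35.4 in CM and 1.15 and 0.624 in CF. Unlike Dsg2, its iCM libraries were above both CF libraries, yet all stayed far below CM. iCM with DMSO had 2.92 times the Dsc2 of CF (log2 change 1.55 ± 0.21, adjusted p = 0.00021) and 0.0732 times that of CM (-3.77 ± 0.20, adjusted p = 4.5e-08).

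Set side by side per kb of exon, the plaque genes Dsp, Pkp2 and Jup summed to 135 CPM per kb with ZLN005, 126 with GW501516, 119 with DMSO, 154 in CM and 28.3 in CF. The cadherins Dsg2 and Dsc2 summed to 0.514, 0.427, 0.564, 10.2 and 0.213 CPM per kb in the same groups. For each 100 units of plaque message there were thus 0.379 ± 0.00119 units of desmosomal cadherin with ZLN005, 0.338 ± 0.0215 with GW501516, 0.473 ± 0.0124 with DMSO, 6.63 ± 0.158 in CM and 0.766 ± 0.245 in CF (SD, n = 2 each). The ratio was lowest in iCM, below CF as well as CM, and the ranges of the iCM libraries (0.322 to 0.482) did not overlap with those of CF (0.593 and 0.939). The cadherin sum itself was above CF in every iCM group. In CF, Jup alone stood at 24.8 of the 28.3 CPM per kb of the plaque genes. The 6 other desmoglein and desmocollin genes in the table together reached at most 0.198 CPM per kb in any library. Within the plaque, Dsp was 7.01, 7.26 and 7.32 times Pkp2 per kb with ZLN005, GW501516 and DMSO, against 1.14 times in CM and 0.828 times in CF.

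**Figure D2:**
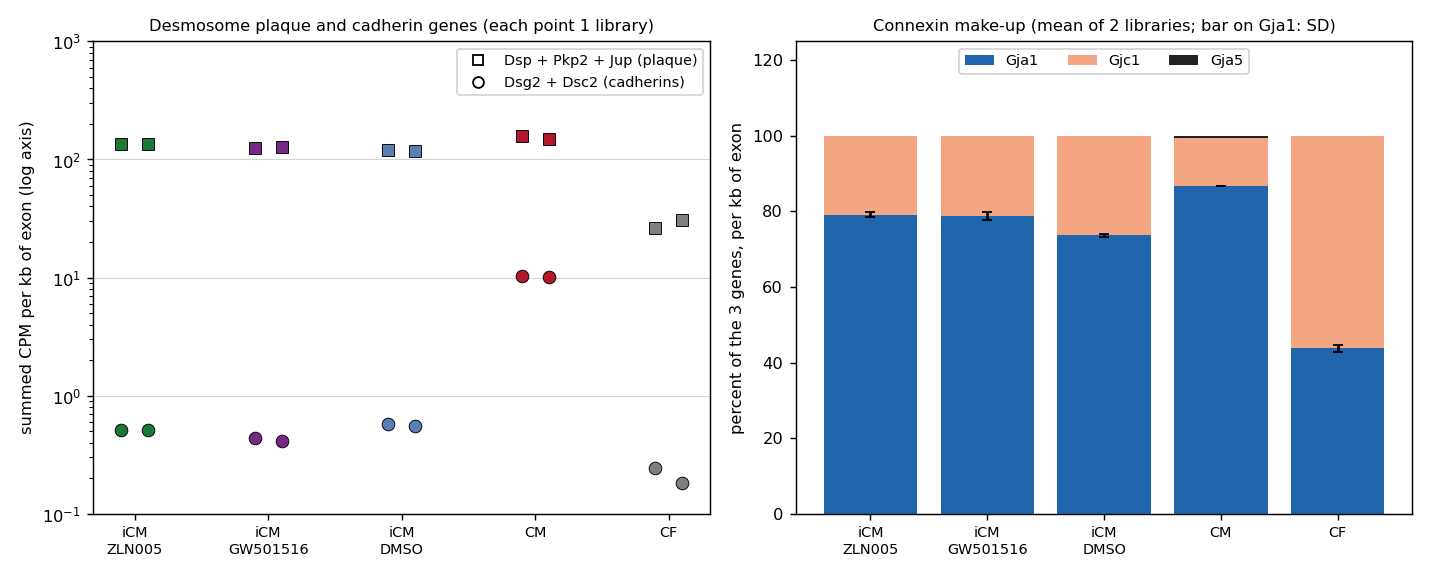
Left: summed CPM per kb of exon (log axis) of the desmosome plaque genes (squares) and desmosomal cadherin genes (circles) in each of 2 libraries for iCM with ZLN005, GW501516 and DMSO, CM and CF; the squares of iCM (119 to 136) approach those of CM (150.2 and 158), whereas the circles (0.414 to 0.576) stay below CM (10.3 and 10.1). Right: percent of each connexin among Gja1, Gjc1 and Gja5 per kb (group means, error bar: SD of Gja1), with Gja1 at 73.6% to 79.2% in iCM, 86.7% in CM and 43.7% in CF.

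Mesothelial and epithelial cells also carry desmosomes, so their markers are given here. The 10 genes of that list summed to 230.3 to 235.9 CPM with ZLN005, 211.7 to 217.7 with GW501516, 179.5 to 185.3 with DMSO, 375.6 to 379.6 in CM and 264.6 to 319.4 in CF. Within the list Krt18, Krt8 and Krt19 were high in CM alone, as were Dsg2 and Dsc2: Krt18 had 1.42 to 2.175 CPM in the 6 iCM libraries, 150.9 and 141.1 in CM and 0.85 and 1.181 in CF, and Krt8 had 0.149 to 0.652 in iCM, 30.4 and 30.62 in CM and 0.945 and 1.149 in CF. Krt19 had 0.931 to 3.023, 41.92 and 46.86, and 0.535 and 0.328 CPM in iCM, CM and CF, whereas Krt7 had 0.248 to 2.922 in iCM, 11.83 and 13.79 in CM and 14.88 and 16.9 in CF. The mesothelial genes Upk3b and Msln were lower in CM than in every other library, with Upk3b at 48.43 to 57.91 CPM in iCM, 22.13 and 20.82 in CM and 59.49 and 76.35 in CF, and Msln at 41.19 to 76.14 in iCM, 17.16 and 16.24 in CM and 30.49 and 34.57 in CF. Lrrn4, also mesothelial, had 9.847 to 17.24 CPM in iCM, 47.07 and 46.89 in CM and 46.61 and 62.7 in CF. Epcam was at 0 with GW501516 and at most 0.531 CPM elsewhere. The part of such cells in the desmosomal cadherin difference was not tested.

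Of 14 other desmosome and desmin linkage genes found, 9 were tested, and against CM 1 was higher and 6 were lower in each iCM group. Of all genes tested, 33.5% to 35.7% were called higher than in CM and 33.7% to 34.2% lower across the iCM groups. Dsg3, 1 of the 6, averaged 0.8125 CPM in CM and at most 0.1347 in any other group. It passed the filter on low counts only through CM, which favours its call as lower. Perp, a membrane protein of desmosomes, had 11.04 and 12.21 CPM in iCM with DMSO and 110.2 and 109.7 in CM (log2 change -3.24 ± 0.09, adjusted p = 4.9e-10). Desmin (Des), the filament that Dsp anchors, had 561.9 and 555.4 CPM in iCM with DMSO, 1832 and 1778 in CM and 7.761 and 10.94 in CF. Des was above CF (log2 change 5.90 ± 0.12, adjusted p = 1.1e-10) and, unlike Dsp, called lower than in CM (-1.69 ± 0.10, adjusted p = 1e-07). Pkp4, a relative of plakophilins found at cell contacts, had 110.8 and 107.4 CPM in iCM with DMSO and 180.1 and 175.7 in CM (-0.71 ± 0.07, adjusted p = 4.2e-06).

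Both adherens junction members were well above CF in iCM and below CM. Cdh2 had 570.9 and 586.9 CPM with ZLN005, 567.2 and 556.6 with GW501516, 503.3 and 493.3 with DMSO, 852.3 and 826.0 in CM and 258.9 and 286.4 in CF. The iCM libraries lay between CF and CM with no overlap, those with DMSO lowest. iCM with DMSO had 1.83 times the Cdh2 of CF (log2 change 0.87 ± 0.05, adjusted p = 4.4e-07) and 0.594 times that of CM (-0.75 ± 0.05, adjusted p = 5.3e-07).

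Ctnna3 had 34.6 and 36.8 CPM with ZLN005, 36.0 and 33.1 with GW501516, 29.3 and 27.6 with DMSO, 48.5 and 42.1 in CM and 3.84 and 4.73 in CF. By share of the log2 distance from CF to CM it stood closer to CM than any member but Dsp, with 90.0% covered with ZLN005, 88.6% with GW501516 and 80.3% with DMSO. iCM with DMSO had 6.64 times the Ctnna3 of CF (log2 change 2.73 ± 0.11, adjusted p = 1.4e-08) and 0.628 times that of CM (-0.67 ± 0.10, adjusted p = 0.00011). The lower level than in CM was also called with ZLN005 (-0.34 ± 0.10, adjusted p = 0.0091) and GW501516 (-0.39 ± 0.10, adjusted p = 0.0045). The ZLN005 call was lost without ZLN005 replicate 1 (-0.28, adjusted p = 0.077) or CM replicate 1 (-0.23, adjusted p = 0.11), and the GW501516 call without GW501516 replicate 2 (-0.33, adjusted p = 0.050) or CM replicate 1 (-0.28, adjusted p = 0.058). Per kb, Ctnna1 (αE-catenin, the form of most tissues) exceeded Ctnna3 27.8-fold with ZLN005, 28.0-fold with GW501516, 27.9-fold with DMSO, 25.3-fold in CM and 97.6-fold in CF.

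Of 19 other cadherin, catenin and adherens junction genes tested, 7 were higher and 8 lower in iCM with DMSO than in CF, and 6 were higher and 7 lower than in CM. Over all genes tested, 39.3% were called against CF, 19.9% higher and 19.5% lower. Against CM 69.7% were called, 35.7% higher and 34.1% lower. T-cadherin (Cdh13), which is held at the membrane by a lipid anchor, had 464.6 and 468.5 CPM in iCM with DMSO against 150.6 and 144.9 in CM and 42.61 and 54.18 in CF. It was above both (log2 change 1.66 ± 0.09 over CM, adjusted p = 5.2e-08, and 3.27 ± 0.09 over CF, adjusted p = 1.2e-09). Afadin (Afdn), an actin-binding partner of nectins, was likewise above CM (393.2 ± 14.3 CPM with DMSO and 195.4 ± 2.29 in CM, SD, n = 2 each; log2 change 1.01 ± 0.07, adjusted p = 2.5e-07). P-cadherin (Cdh3) went the other way, with 7.464 and 8.06 CPM in iCM with DMSO, against 67.62 and 65.84 in CM and 29.34 and 36.25 in CF.

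Across all 10 genes, CM exceeded CF in every case, whereas iCM exceeded CF in most and CM in few. In CM over CF 10 of 10 were called higher, where 70.7% of all genes tested were called, 34.5% higher and 36.2% lower. Gja5 is in this count and in the medians below, although it passed the filter only through CM, which favours its call. In iCM with DMSO over CF 7 were higher and none lower (39.3% of all genes called, 19.9% higher and 19.5% lower), and Gja5, Gjc1 and Dsg2 were not called. The counts were 8 higher with ZLN005 (50.1% of all genes called, 24% higher and 26% lower) and 7 higher with GW501516 (49.9% called, 23.9% higher and 25.9% lower), none lower in either. Without CF replicate 1, the library rich in macrophage markers, 7 members were called higher in each iCM group and 10 in CM, and Gjc1 was called lower with GW501516. Without CF replicate 2, 8 were called with DMSO, Dsg2 among them. The median log2 change of the 10 was 1.35 in iCM with DMSO over CF and 4.53 in CM over CF, against -0.01 and -0.02 over all genes tested.

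Against CM, 8 of the 10 were lower in each iCM group: Gja1, Gja5, Gjc1, Pkp2, Dsg2, Dsc2, Cdh2 and Ctnna3. Jup was higher in all 3 and Dsp in ZLN005 alone. Gja5, in the count and in the medians below, passed the filter only through CM, which favours its call as lower. The share of all genes called was 67.9% for ZLN005 (33.7% higher, 34.2% lower), 67.2% for GW501516 (33.5% higher, 33.7% lower) and 69.7% for DMSO (35.7% higher, 34.1% lower). The median log2 change of the members was -1.32, -1.57 and -1.68 in the same order, against 0.01, 0.00 and 0.03 over all genes tested. The sum of the cardiomyocyte markers was lower in iCM than in CM too, at 5705 to 9939 against 26140 and 26680 CPM. Myl4 went the other way, with 1834 to 3398 CPM in iCM against 1613 and 1680 in CM. Tnnt2 with ZLN005 (4604 and 4963 CPM) overlapped with CM (4738 and 4658). The part of muscle cell content in the differences of the members from CM was not tested.

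**Figure D3:**
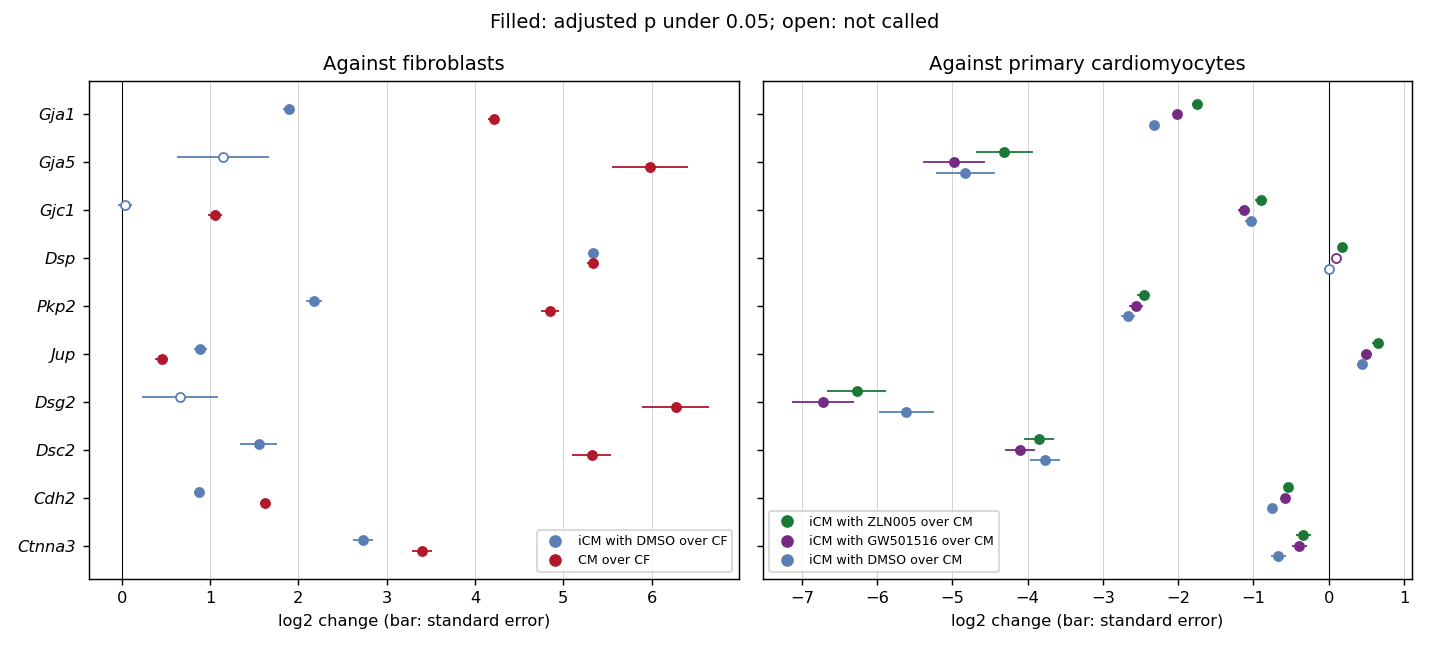
Log2 change of each gene (x axis, bar: standard error) in iCM with DMSO and CM over CF (left) and in iCM with ZLN005, GW501516 and DMSO over CM (right), filled where the adjusted p was under 0.05. On the left Dsp is at the same place for iCM (5.34) and CM (5.33), while Dsg2 is at 0.66 and 6.27; on the right Jup alone is filled to the right of 0 in all 3 groups.

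Gja1 was higher with either compound than with DMSO, and the other members differed by less or were not called. ZLN005 gave 1.49 times the Gja1 of DMSO (log2 change 0.58 ± 0.06, adjusted p = 0.00011), and GW501516 1.24 times (0.31 ± 0.06, adjusted p = 0.0047). Both libraries of each compound were above both DMSO libraries. The ZLN005 rise was called under every alternative tried (log2 changes 0.55 to 0.61, adjusted p up to 0.0039), whereas the GW501516 rise was lost without GW501516 replicate 1 (0.31, adjusted p = 0.053). Leaving out DMSO replicate 1 ended that call as well (0.29, adjusted p = 0.065). With ZLN005 Gja1 still stood at 0.298 times its CM level.

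With ZLN005 over DMSO, 4 of the 10 were called higher and none lower, where 15.5% of all genes were called, 6.64% higher and 8.84% lower. Beside Gja1 these were Ctnna3 (log2 change 0.33 ± 0.10, adjusted p = 0.046), Cdh2 (0.22 ± 0.05, adjusted p = 0.023) and Dsp (0.16 ± 0.05, adjusted p = 0.048). All 3 lost the call when any 1 of the 4 libraries was left out. Without ZLN005 replicates 1 and 2 and DMSO replicates 1 and 2 in turn, the adjusted p was 0.11, 0.21, 0.13 and 0.21 for Ctnna3, 0.063, 0.11, 0.11 and 0.098 for Cdh2, and 0.10, 0.23, 0.17 and 0.18 for Dsp. Pkp2 and Jup were higher by 0.22 each on the log2 scale without passing the test (adjusted p = 0.12 and 0.064), though under 3 and 5 of 11 alternatives they passed. The desmosomal cadherins gave no call, with log2 changes of -0.66 for Dsg2 (95% interval -1.65 to 0.33) and -0.08 for Dsc2 (-0.52 to 0.37).

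With GW501516 over DMSO, Gja1 was the 1 member of 10 called, where 14.8% of all genes were called, 7.8% higher and 6.96% lower. The nearest others were Cdh2 (log2 change 0.17 ± 0.05, adjusted p = 0.059) and Ctnna3 (0.28 ± 0.10, adjusted p = 0.085), which passed under 4 and 3 of 11 alternatives. Dsg2 had 22 counts over both GW501516 libraries and its log2 change of -1.11 ± 0.49 did not pass (adjusted p = 0.17).

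In the direct comparison of the compounds, whose doses are not given, Gja1 was higher with ZLN005 than with GW501516 (log2 change 0.26 ± 0.06, 1.20 times, adjusted p = 0.023). It was the 1 member called of 10, where 5.06% of all genes were called, 1.54% higher and 3.52% lower. The call was lost without ZLN005 replicate 1 (0.27, adjusted p = 0.095), ZLN005 replicate 2 (0.27, adjusted p = 0.11), GW501516 replicate 1 (0.27, adjusted p = 0.18) or GW501516 replicate 2 (0.27, adjusted p = 0.18). For Dsp, Cdh2 and Ctnna3 the 95% intervals of ZLN005 over GW501516 were -0.04 to 0.16, -0.08 to 0.16 and -0.17 to 0.26 on the log2 scale. Both compounds are set against the same DMSO libraries.

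Other measures moved with the compounds. The cardiomyocyte markers summed to 9581 to 9895 CPM with ZLN005 and 9868 to 9939 with GW501516, against 5705 to 5916 with DMSO, and macrophage markers to 103.2 to 105.2 and 101.7 to 102.8 CPM, against 687.1 to 712.7. The fibroblast markers summed to 9467 to 9718 and 12410 to 12580 CPM, against 15600 to 15990 with DMSO. With GW501516 the collagens Col1a1, Col1a2 and Col3a1 were lower than with DMSO, whereas Dcn, Lum, Pdgfra and Postn were higher. Dcn, for instance, had 168.8 and 166.3 CPM with GW501516 and 112.7 and 120.8 with DMSO. Of the cardiomyocyte markers, Myh6, Tnnt2, Tnni3, Actn2, Ryr2 and Myl4 were higher with both compounds, and Nppa, Myl2 and Myl3 lower. The part of these shifts in the rise of Gja1 was not tested.

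**Figure D4:**
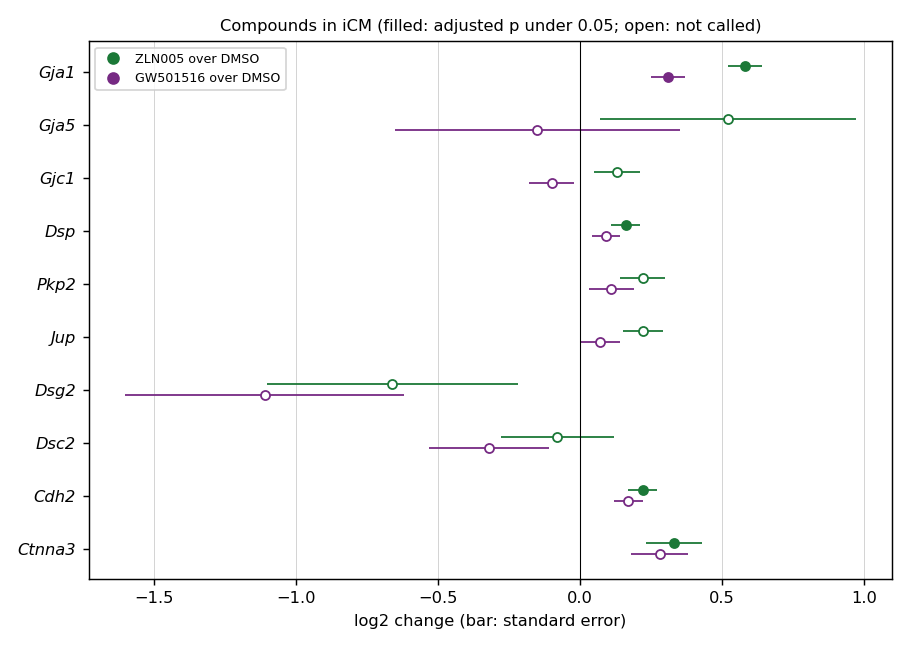
Log2 change of each gene (x axis, bar: standard error) in ZLN005 iCM and GW501516 iCM over DMSO iCM, filled where the adjusted p was under 0.05. Gja1 is filled for both compounds (0.58 and 0.31), and Dsp, Cdh2 and Ctnna3 for ZLN005 alone. Dsg2 lies left of 0 (-0.66 and -1.11), unfilled. The widest bars are those of Gja5 (0.45 and 0.50) and Dsg2 (0.44 and 0.49).

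Several scaffold and partner genes of the disc also differed with the compounds. Of 21 tested, 9 were higher and 4 lower with ZLN005 than with DMSO, and 7 were higher and 4 lower with GW501516. Over all genes tested, 6.64% were higher and 8.84% lower with ZLN005, and 7.8% higher and 6.96% lower with GW501516. Popdc2, which codes for a cyclic AMP binding membrane protein of muscle, had 185.4 and 190.6 CPM with ZLN005 and 162.0 and 163.0 with GW501516, against 82.89 and 82.28 with DMSO (log2 change 1.19 ± 0.07, adjusted p = 2.2e-06, and 0.98 ± 0.07, adjusted p = 9.4e-06). Xirp2, an actin-binding protein of the disc, had 19.38 and 16.94 CPM with ZLN005 and 21.07 and 21.13 with GW501516, against 9.698 and 9.411 with DMSO (0.92 ± 0.10, adjusted p = 0.00028, and 1.14 ± 0.10, adjusted p = 7.2e-05).

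Against CM most of these partners were low in iCM: 15 of 21 with ZLN005, 15 with GW501516 and 16 with DMSO were called lower. Of all genes tested, 34.2%, 33.7% and 34.1% were called lower in the same order. Nrap, a scaffold of nascent myofibrils and the disc, had 8.73 and 8.081 CPM in iCM with DMSO and 367.0 and 345.7 in CM (log2 change -5.40 ± 0.11, adjusted p = 6.1e-11). Bves had 6.012 and 5.501 against 216.2 and 218.4 CPM, and ankyrin G (Ank3), which links membrane proteins to the spectrin skeleton, 15.17 and 14.29 against 202.7 and 194.3 CPM. Their log2 changes from CM were -5.24 ± 0.10 for Bves and -3.75 ± 0.08 for Ank3 (adjusted p = 4.3e-11 and 8e-11), beside -5.61 for Dsg2, -3.77 for Dsc2 and 0.01 for Dsp in the same comparison.

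The profile over the 5 group means differed between the members. The closest pair was Gja1 and Pkp2, whose centred log2 CPM differed by a root mean square of 0.26, followed by Gja5 and Dsc2 with 0.31. Of all tested genes above 1 CPM in their highest group, Dusp10 and Lsmem2 were most like Gja1 (0.122 and 0.137), with Dusp10 at 19.9, 16.3, 12.4, 55.4 and 3.81 CPM in ZLN005, GW501516, DMSO, CM and CF. Mylk3, the cardiac myosin light chain kinase, was most like Dsg2 (0.081), at 3.24, 2.58, 4.64, 217 and 3.30 CPM, with Camk2b next (0.302). Lrrc2 and Clic5 were most like Dsp (0.247 and 0.261), both above CM in iCM: Clic5 had 454, 350, 293, 231 and 7.75 CPM.

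For the rest, Pik3c2b and Cldn4 were nearest to Gja5 (0.219 and 0.218), Chchd10 and Lancl3 to Pkp2 (0.159 and 0.211), Nlrp10 and Casq1 to Dsc2 (0.120 and 0.200), and Pgam2 and Ldb3 to Ctnna3 (0.151 and 0.170). Cldn4 was at the limit of detection outside CM, and with a prior count of 0.5 in place of 2 it was the 46th nearest to Gja5. Usp36 and Zc2hc1c (0.034 and 0.036), Plaat3 and Gphn (0.037 and 0.043) and Syt12 and Jag2 (0.035 and 0.064) were nearest to Gjc1, Jup and Cdh2, whose profiles are flat and have many neighbours: 1531, 404 and 250 genes lay within 0.25 of them, against 14 for Gja1 and 1 each for Dsp and Dsg2. The replicates of Gphn differed widely, at 143.0 ± 55.35 CPM with ZLN005 and 134.5 ± 50.83 with GW501516 (SD, n = 2 each). These likenesses rest on 5 points and describe levels only.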

How the data were processed

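The deposited table holds unnormalized counts by gene symbol for 10 libraries, made from TRIzol RNA (2 ug of total RNA, TruSeq kit, per the labels' protocols). Per the submitters' processing notes the authors used Trimmomatic 0.36, HISAT2 on mm10, SAMtools and featureCounts of Subread 1.5.1. The gene annotation, strand setting and handling of multiply mapped reads are not stated there.

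edgeR 4.0.16 under R 4.3.3 was used for TMM scaling and for 1 quasi-likelihood fit of the 5 groups without covariates, on the 15740 genes that filterByExpr kept (minimum count 10, here 0.208 CPM). Benjamini-Hochberg adjustment ran over every gene tested, with calls under 0.05. The size of a log2 change divided by the root of its F statistic gave its standard error, and none is given for Dsg2 in ZLN005 over CF, whose change rounded to 0. Each group had 2 libraries, whose number limits precision. The method was also run on simulated counts, drawn at the trend of spread from the same fit. Such counts cannot show how the method holds for the spread between the real replicates.

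The 10 members and all lists were chosen with earlier results of these data known. Named genes were the members, up to 3 called genes per list and comparison with the smallest p, at least 1 CPM and no overlap of ranges, and the 2 genes of closest profile per member (log2 CPM with a prior count of 2). Merged exon lengths came from GENCODE release 21, shared sequence from BLAST 2.17.0 (at least 200 bases at 95% identity). Alternatives were other scaling, filters, thresholds, limma 3.58.1 voom, DESeq2 1.42.0, 2 groups alone, a replicate block and leaving out each library.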

Additional observations from a re-analysis of the deposited data

How the results depend on the processing

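Of 1095 recomputed log2 changes of members, 1024 kept direction and side of the threshold, 24 became called, 30 lost their call and 17 changed sign. None of the 17 was called. For Dsg2 in ZLN005 over CF, at 0 to 2 decimals, the values were 0.02 with DESeq2 size factors, 0.02 with a filter of 1 CPM, 0.06 with voom, 0.04 with DESeq2, 0.05 with 2 groups alone, 0.43 without ZLN005 replicate 2 and 0.73 without CF replicate 2. Leaving out 1 library at a time gave -0.49 to 0.73 for that comparison, -0.93 to 0.29 for Dsg2 and -0.17 to 0.07 for Gjc1 in GW501516 over CF, and -0.07 (without CF replicate 1; -0.01 without DMSO replicate 2) to 0.17 for Gjc1 in DMSO over CF. It gave -0.13 to 0.95 for Gja5 in ZLN005 over DMSO, -0.47 to 0.28 for Gja5 in GW501516 over DMSO, and -0.01 to 0.11 for Ctnna3 in ZLN005 over GW501516. Dsp in DMSO over CM was -0.01 with DESeq2 size factors, with DESeq2 and without CM replicate 2.

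The compound comparisons depended most on the setting. For ZLN005 over DMSO, 2437 genes and 4 members were called, against 1211 and 1 at an adjusted p under 0.01, 4477 genes with 2 groups alone, and 1092 to 1300 genes and 1 member when 1 library was left out. For GW501516 over DMSO, 2323 genes and 1 member were called, against 1121 genes at 0.01, 4342 genes and 4 members with 2 groups alone, 2 members with DESeq2 size factors, without a filter or with a filter of 1 CPM, 3 with DESeq2, and 955 to 1256 genes and 0 to 1 member when 1 library was left out. For ZLN005 over GW501516, 796 genes and 1 member were called, against 439 and 0 at 0.01, 2413 and 3 with 2 groups alone, and 344 to 384 and 0 when 1 library was left out. A lone library left in a group was assumed to vary like the other groups. The fit of 2 groups alone called more genes with fewer samples. With it, and with DESeq2, 6 members were called for ZLN005 over DMSO. The 5-group fit shared 1 estimate of the spread. CF replicates differed most, with a chi-square of 58.7 per degree of freedom, against 3.32 to 6.32 in the other groups. The cause of these shifts was not tested.

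The counts showed no sign of pairing by replicate number: correlations of the replicate differences between groups were -0.00318 to 0.0398. Such values cannot tell if libraries were prepared in pairs. With the replicate number as a block, 2 members were called for ZLN005 over DMSO. Other scaling changed no level of a member by more than 1.04 times, and shifted the median of all genes by at most 0.036 on the log2 scale. Depth limits Gja5 outside CM, with 4 to 18 counts per library, and Dsg2, with 8 to 41.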
